A study of Rhamphochromis sp. 'chilingali' and Astatotilapia calliptera with 50 samples.

Results

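The genes described here are kcnk18 (ENSACLG00000005460) and tspan37 (ENSACLG00000009297), 2 of the 28001 genes in a whole-embryo expression table of Lake Malawi cichlids and 2 of the 21212 genes that passed the filter on low values. They were chosen by name because the study singled them out for a difference in expression between species and for lying near genomic regions with signs of selection. The levels that set the species apart are therefore given as a description, without a test. Tests are given only for changes between stages within a species. They use the same embryos as the species difference for which the genes were chosen, so they are not fully independent of that choice.

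The study compared Astatotilapia calliptera (AC), a generalist feeder, with Rhamphochromis sp. 'chilingali' (RC) through somitogenesis, the period in which somites are laid down and the neural crest forms and migrates. All embryos were wild-type and tank-reared, and each library came from a single homogenised whole embryo. AC was sampled at 4, 10, 15, 18, 20, 22, 26 and 30 somites (ss) and RC at the same stages and at 37ss, with 3 embryos per group except 2 for RC at 4ss (replicates 1 and 3), or 24 AC and 26 RC embryos in all. The AC embryos called 26ss carry a label of 27 somites. Each species is represented by a single clutch, so species and clutch cannot be told apart, and p-values measure the spread between sibling embryos.

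kcnk18 encodes TRESK, a background potassium channel of the family with paired pore domains in each subunit. Such channels leak potassium and hold the resting membrane potential of a cell, and in mammals TRESK is activated by calcineurin and known from sensory neurons. tspan37 encodes a tetraspanin, an integral membrane protein of a family that gathers receptors and adhesion molecules into membrane microdomains. Neither gene is a defining marker of a cell type, and in whole embryos fewer cells that express a gene and less RNA per cell cannot be told apart. By in situ hybridization the study saw neither gene at the stages where expression differed, perhaps because levels were low. The study held that its top genes near selected regions, these among them, were unlikely to act in neural crest differences between the species.

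Between 17619762 and 27454591 reads per embryo fell on genes, with a median of 22579546 in AC and 22609002 in RC. The unit throughout is the authors' normalized count, in which 1 read is worth close to 1. myf5, a myogenic factor of the somites, ranged from 155 to 2874 normalized counts and was detected in each of the 50 embryos. RC reads were mapped to the AC genome, and the part that mapping plays in the species differences was not tested. Levels were not corrected for gene length, so they are compared between embryos and not between genes.

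kcnk18 was a sparsely read gene: 905 reads in all fell on it over the 50 embryos, at most 47 in 1 embryo, and 5 embryos had 0 reads. In AC at 4ss the 3 embryos had 0, 0 and 0 reads, with 95% counting intervals that reach 3.48, 4.79 and 4.53 normalized counts. A floor of 3 reads, used here, is 2.83 to 3.90 normalized counts in these embryos. At 10ss the values were 0, 6.44 and 1.005 normalized counts, still at or near that floor. All AC embryos were clearly above it from 15ss.

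At 15ss the AC embryos held 11.5, 11.8 and 15.9 normalized counts of kcnk18. At 18ss they held 38.6, 38.5 and 34.7, with no overlap with 15ss, as for 13.7% of genes. The values then stayed high, at 33.8, 33.0 and 29.1 at 20ss and at 33.8, 38.8 and 42.8 at 22ss. At 26ss they were 22.1, 20.5 and 11.6, all below the 22ss embryos (7.43% of genes), and at 30ss they were 29.1, 15.7 and 19.9, which overlapped 26ss.

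In these values the AC profile of kcnk18 was a climb over early and mid somitogenesis, a plateau from 18ss to 22ss and lower values afterwards. The plateau was not tested, and the later fall did not pass the test given below. Across the 8 AC stages the level changed (limma F-test, adjusted p = 2.32e-12, n = 24 embryos), as it did for 75.5% of all genes tested. At 30ss the level was higher than at 4ss (limma adjusted p = 8.31e-10). The rise has a lower bound of 6.21-fold, with 4ss, where no reads were found, set at a floor of 3 reads per library. Of all genes tested, 36.7% were called higher in this comparison, where called means an adjusted p under 0.05 and a change above 1.5-fold.

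Of the 7 steps between successive AC stages, 2 were called for kcnk18. The step from 10ss to 15ss had a log2 fold change of 2.50 (SE 0.50, limma adjusted p = 0.00101, 5.5% of genes called higher), where log2 fold changes here are differences of log2(normalized count + 1). Without AC replicate 1 it was 1.93 and no longer called (adjusted p = 0.0566). The step from 4ss to 10ss also passed (adjusted p = 0.0350, 20.9% of genes called higher), but both stages lie at or near the floor, so no fold is given, and the call was lost without AC replicate 2 (adjusted p = 0.531), at 10ss the embryo with 6 reads, without AC replicate 3 (adjusted p = 0.104) and without RC replicate 2 (adjusted p = 0.0536), and with a pseudocount of 10 (0.29, adjusted p = 0.325).

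From 15ss to 18ss, where the AC ranges of kcnk18 separate, the log2 fold change was 1.45 (SE 0.50, limma adjusted p = 0.0605, 3.38% of genes called higher), just short of the call, and edgeR and DESeq2 on the recovered reads did call it (adjusted p = 0.0489 and 0.00487), as did limma without RC replicate 1 (adjusted p = 0.0490). The later fall from 22ss to 26ss was not called, with a log2 difference of -1.09 (SE 0.50, adjusted p = 0.513), though it was with a pseudocount of 10 (-0.80, adjusted p = 0.0419). In that step 0.222% of all genes were called lower.

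In RC kcnk18 also began at or near the floor. The 2 embryos at 4ss held 1.11 and 0 normalized counts and the 3 embryos at 10ss held 1.02, 0.954 and 2.59. At 15ss the values were 8.08, 4.23 and 1.04 and at 18ss 2.23, 5.83 and 9.10, so these groups overlapped each other. The first stage at which each RC embryo exceeded 10 normalized counts was 20ss, with 16.7, 14.3 and 10.8. Each AC embryo had passed that level at 15ss. These stages are by somite number, and a difference in timing between the species was not tested.

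RC levels of kcnk18 went on to 29.5, 9.11 and 17.3 at 22ss, 23.0, 15.2 and 25.4 at 26ss, and 20.0, 23.8 and 23.6 at 30ss. The last stage sampled, 37ss, held the highest RC mean, with 47.5, 31.7 and 28.2 normalized counts in the 3 embryos. All of them lay above the 30ss embryos, as for 9.74% of genes, and the single highest kcnk18 value of the 50 embryos was among them. The difference from 30ss was not called, at a log2 fold change of 0.62 (SE 0.50, limma adjusted p = 0.954, 0.16% of genes called higher).

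Over the 9 RC stages the level of kcnk18 changed (limma F-test, adjusted p = 1.71e-09, n = 26 embryos, 59.2% of all genes). At 30ss it was higher than at 4ss (limma adjusted p = 2.09e-07, 28.2% of genes called higher). The fold between these stages rests on 1 read in the 2 embryos at 4ss against 73 reads in the 3 at 30ss, a ratio of 45.7 with an exact 95% counting interval of 7.95 to 1830. This ratio and the lower bound given for AC are unlike measures and are not compared. None of the 8 single RC steps was called by limma, edgeR or DESeq2, and 1 of them, from 18ss to 20ss, had an unadjusted p below 0.05 (0.0152). Steps between RC stages after 10ss were called for at most 1.17% of all genes.

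**Figure D1:**
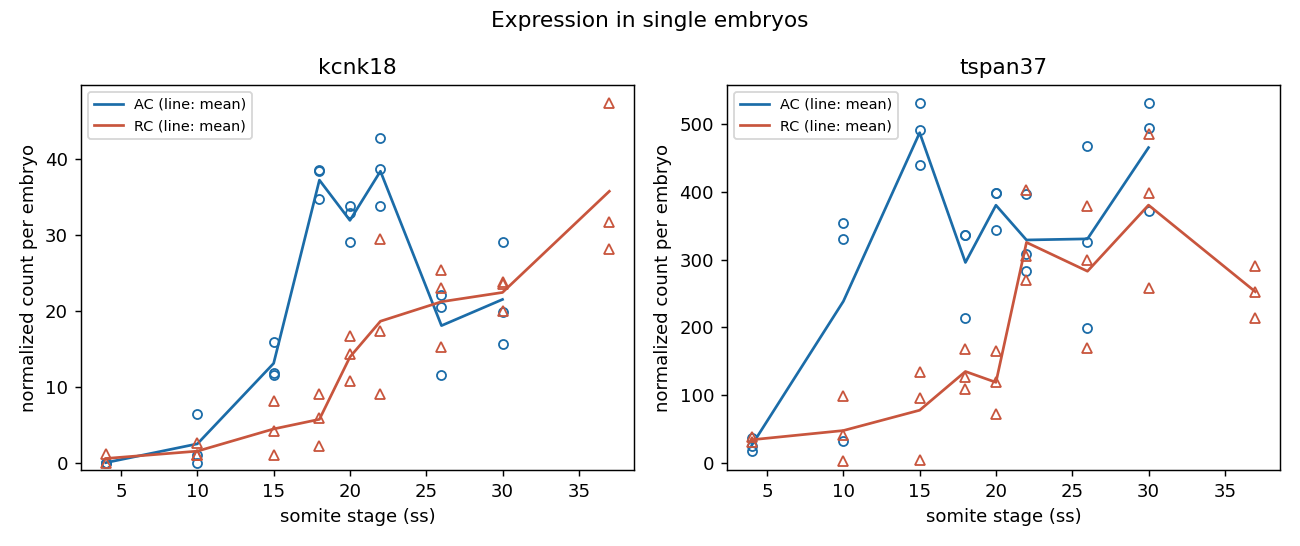
Normalized count per embryo (vertical axis) of kcnk18 (left) and tspan37 (right) against somite stage (horizontal axis), with AC embryos as circles, RC embryos as triangles and lines through the group means. For kcnk18 the AC embryos at 18ss sit between 34.7 and 38.6 and the RC embryos between 2.23 and 9.10. For tspan37 the AC embryos at 15ss sit between 440.3 and 532 and the RC embryos between 4.17 and 133.

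Side by side at equal somite number, the species had overlapping kcnk18 ranges at 4, 10, 26 and 30ss, and each RC embryo lay below each AC embryo at 15, 18, 20 and 22ss. Such a separation, RC below AC, was seen for 22.2%, 21.9%, 21.9% and 19.6% of all genes tested at these 4 stages, and since the gene was chosen on this contrast nothing is read from it. The AC mean was 2.94 times the RC mean at 15ss, 6.52 times at 18ss, 2.29 times at 20ss and 2.06 times at 22ss. At 26ss AC averaged 18.1 ± 5.68 normalized counts and RC 21.2 ± 5.32 (SD, n = 3), and at 30ss AC averaged 21.5 ± 6.86 and RC 22.5 ± 2.17. The ranges of kcnk18 were thus separate at the middle stages sampled and overlapped before and after them.

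RC forms more somites than AC, so stages can also be matched, though only roughly, by the share of somitogenesis completed. Differences within such pairs therefore take in some difference in stage. On that scale kcnk18 ranges overlapped between RC at 15ss and AC at 10ss, and again between RC at 37ss and AC at 30ss. There the log2 differences, RC minus AC, were 0.90 and 0.72 (SE 0.50), with RC the higher, and AC at 10ss lies at or near the floor. RC lay wholly below AC in the 4 pairs between, for which 17%, 20.4%, 18.4% and 16.4% of all genes did so, from the earliest pair to the latest. The log2 differences in these pairs, RC minus AC, were -1.20 for RC at 18ss against AC at 15ss, -1.10 for 22ss against 18ss, -0.60 for 26ss against 20ss and -0.75 for 30ss against 22ss, each with an SE of 0.50. At equal somite number (SE 0.51) the log2 difference was -1.60 at 15ss and -2.66 at 18ss, followed by -1.16 at 20ss, then -1.14 at 22ss. The differences at 20ss and 22ss lay within the range of the share-matched pairs. RC embryos held 1 to 8 reads of kcnk18 at 15ss and 2 to 10 at 18ss. With a pseudocount of 10 the differences at 15ss and 18ss were -0.70 and -1.61, so their size depends on the pseudocount.

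**Figure D2:**
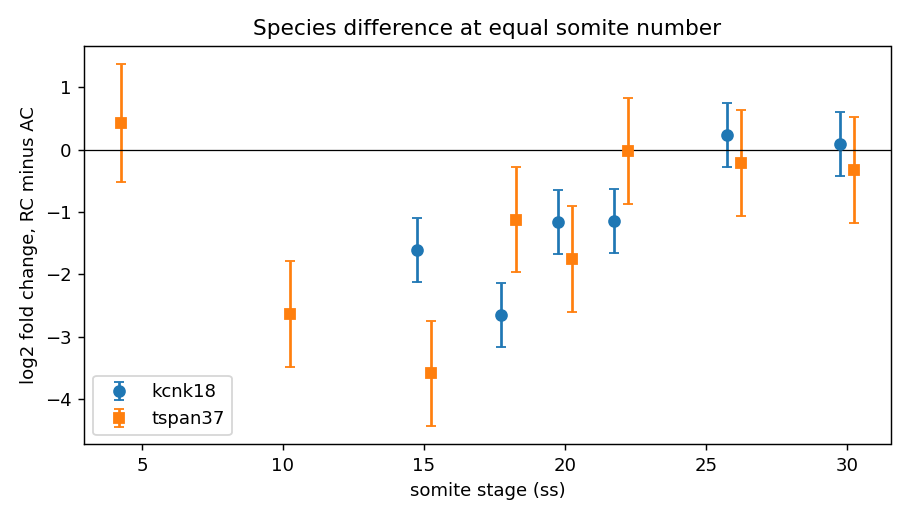
Log2 fold change of RC minus AC (vertical axis) at each somite stage (horizontal axis) for kcnk18 (circles) and tspan37 (squares); bars are 1 SE of the model. The lowest points are -2.66 for kcnk18 at 18ss and -3.59 for tspan37 at 15ss, and kcnk18 at 4ss and 10ss is left out because its reads there are at the floor.

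tspan37 was read more deeply, with 13060 reads over the 50 embryos and between 3 and 562 in each. In AC at 4ss the embryos held 16.96, 36.4 and 24.6 normalized counts. At 10ss they held 329.9, 32.2 and 354, so 1 embryo remained at the 4ss level while its siblings were about 10 times higher. At 15ss, with 532, 440.3 and 491, all AC embryos were high and the group mean was the highest of the 17 groups.

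Later AC levels of tspan37 stayed high: 337, 214 and 337 at 18ss, 399, 398 and 344 at 20ss, and 308, 283 and 396 at 22ss. At 26ss the embryos spread from 199 through 326 to 468, and at 30ss they held 494, 371 and 532. The 18ss embryos lay below the 15ss embryos (10.8% of genes), and every later group overlapped the one before it except 20ss, which lay above 18ss (10% of genes).

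Across the AC stages tspan37 changed (limma F-test, adjusted p = 0.000336, n = 24), as did 75.5% of all genes tested. From 4ss to 30ss the log2 fold change was 4.16 (SE 0.82, limma adjusted p = 3.32e-05, 36.7% of genes called higher). The step from 4ss to 10ss had a log2 fold change of 2.61 (SE 0.82, limma adjusted p = 0.00979, 20.9% of genes called higher) and was the one call in 7 AC steps. In normalized counts the group mean went up by 213 in this step and by 249 in the next. That call did not hold without AC replicate 1 (log2 fold change 1.81, adjusted p = 0.211) or without AC replicate 3 (2.02, adjusted p = 0.171), the 2 embryos that were high at 10ss. No other AC step was called, the largest being 1.63 (SE 0.82, adjusted p = 0.191) from 10ss to 15ss.

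In RC tspan37 began at 29.9 and 37.9 normalized counts at 4ss, overlapping the AC range of 16.96 to 36.4. At 10ss the embryos held 98.2, 2.86 and 41.4, and at 15ss 133, 95.2 and 4.17. In each of these groups 1 embryo thus lay far below its siblings, at 3 and 4 reads. The other RC embryos were between 41.4 and 133.

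From 18ss on no RC embryo was near 0 for tspan37. The values were 127, 109 and 168 at 18ss and 165, 71.6 and 119.6 at 20ss, in overlapping ranges. At 22ss they were 269, 305 and 403, all above 20ss, and at 26ss 380.1, 169.5 and 299.5. At 30ss they were 258, 399 and 485, and at 37ss 291, 253 and 215.

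Across RC stages tspan37 changed (limma F-test, adjusted p = 0.000164, n = 26), as did 59.2% of all genes tested. From 4ss to 30ss the log2 fold change was 3.41 (SE 0.92, limma adjusted p = 0.00219, 28.2% of genes called higher). From 30ss to 37ss it was -0.55 (SE 0.82, limma adjusted p = 0.993, 0.146% of genes called lower), which was not called. None of the 8 RC steps was called by limma, edgeR or DESeq2, and 1 had an unadjusted p below 0.05, the step from 15ss to 18ss (0.0439). The separation of ranges between 20ss and 22ss had a log2 fold change of 1.51 (SE 0.82, adjusted p = 0.402), and 18.5% of all genes separated in that direction in this step.

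At equal somite number the tspan37 ranges of the species separated at 15, 18 and 20ss, with RC the lower, and overlapped at the other 5 stages. Of all genes tested 22.2%, 21.9% and 21.9% separated in that direction at these 3 stages, and nothing is read from it. The AC mean was 6.29 times the RC mean at 15ss, 2.20 times at 18ss and 3.20 times at 20ss. At 22ss AC averaged 329 ± 59.6 and RC 326 ± 69.1 normalized counts (SD, n = 3), a log2 difference of -0.02 (SE 0.85). At 10ss the difference was -2.64 (SE 0.85) with overlapping ranges, since the low AC embryo fell within the RC range, and it was -3.76 without AC replicate 2 and -1.28 without RC replicate 2.

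At 15ss the log2 difference in tspan37 of -3.59 (SE 0.85) went to -2.10 without RC replicate 3, and the remaining RC embryos still lay below each AC embryo. Matched by share of somitogenesis, RC lay wholly below AC in 2 of 6 pairs, RC at 18ss against AC at 15ss (log2 difference -1.87, SE 0.82, 17% of genes) and 37ss against AC at 30ss (-0.87, SE 0.82, 14.8% of genes). In the 4 other pairs the tspan37 ranges overlapped. Their log2 differences (SE 0.82) were -1.96 for RC at 15ss against AC at 10ss and 0.15 for 22ss against 18ss. They were -0.50 for 26ss against 20ss and 0.18 for 30ss against 22ss.

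The embryos with little tspan37 differed from their siblings in more than this gene. On the first principal component of all other genes tested, which held 39.2% of the variance and ordered the groups of each species by stage, RC replicate 2 at 10ss, RC replicate 3 at 15ss and RC replicate 1 at 18ss had scores that deviated from their group means by -32.1, -36.0 and -32.9, each nearest to an earlier stage. The first and second of these are the embryos with 3 and 4 reads of tspan37. The third held 127 normalized counts of tspan37, within the range of its siblings, and the lowest kcnk18 of its group, at 2.23. At 20ss, RC replicate 2 and AC replicates 2 and 3 were also nearest to an earlier stage, 18ss. The siblings of the 3 RC embryos were nearest to a later stage, except RC replicate 3 at 10ss. Whether the 3 embryos lag or their siblings lead was not tested.

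The low AC embryo was placed otherwise. AC replicate 2 at 10ss deviated from its group mean by -7.81 on that component, nearest to its own stage, and it held the most kcnk18 of its group. Deviations of tspan37 from the group means had a correlation of 0.80 with deviations on the component over the 26 RC embryos and of 0.22 over the 24 AC embryos, and those of kcnk18 had 0.59 and -0.30. These are descriptions over embryos of 1 clutch each and carry no test. The RC values take in the embryos with 3 and 4 reads of tspan37, and values without those embryos are not given. With the log2 of the reads on genes the correlations of tspan37 were -0.19 in RC and -0.11 in AC, and the part that these embryo differences play in the stage and species values was not tested.

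**Figure D3:**
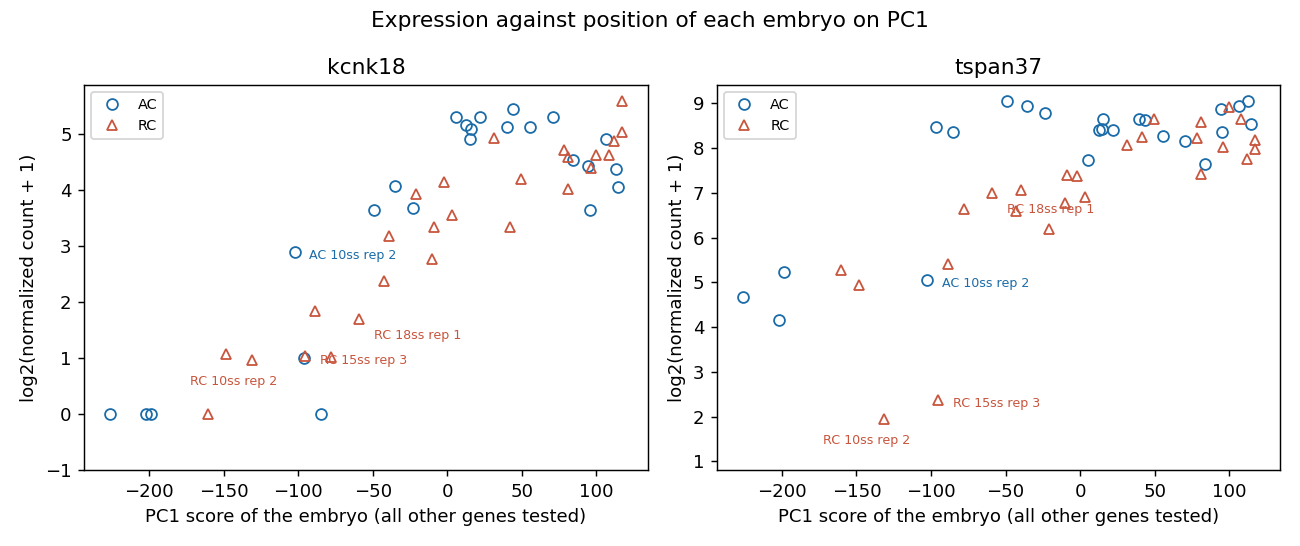
Log2(normalized count + 1) of kcnk18 (left) and tspan37 (right) against the score of each embryo on the first principal component of all other genes tested (horizontal axis, arbitrary units), AC as circles and RC as triangles. RC replicate 2 at 10ss and RC replicate 3 at 15ss, with 2.86 and 4.17 normalized counts of tspan37, lie below every other embryo for that gene, while RC replicate 1 at 18ss lies among the RC embryos.

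Leaving out these 3 RC embryos, a choice made after seeing the data, kept each test across stages of both genes. The tspan37 F-test then had an adjusted p of 3.61e-08 in AC and 2.23e-05 in RC, and the AC step from 10ss to 15ss became a call at the same log2 fold change of 1.63 (adjusted p = 0.0234). For kcnk18 the AC step from 15ss to 18ss likewise became a call (adjusted p = 0.0320). The species difference in kcnk18 was then -1.02 at 15ss, against -1.60 with all embryos.

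At the level of all genes, 670 of the 21212 tested (3.16%) lay at least 5-fold below the lowest sibling in RC replicate 2 at 10ss and 679 (3.20%) did so in RC replicate 3 at 15ss, with the embryo's own value taken as no less than 1 normalized count. The lists shared 279 genes, 41.6% of the first and 41.1% of the second. In AC replicate 2 at 10ss 265 genes (1.25%) did so, of which 42 were also low in the 10ss RC embryo. In all 3 embryos 24 genes (0.113% of those tested) were low. tspan37 was 1 of them, by 10.2-fold in the AC embryo and by 14.5-fold and 22.8-fold in the RC embryos at 10ss and 15ss. These 3 embryos were picked for their low tspan37, so its place among the 24 was set by that choice. The measure was computed for these embryos alone, so whether such shares of genes are unusual was not tested. kcnk18 was not among the 24.

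Among the 21212 genes tested, 351 had deviations over the RC embryos correlated above 0.9 with those of tspan37. In AC 2 genes did, and for kcnk18 none did in either species. The RC count takes in the embryos with 3 and 4 reads of tspan37, and no count without them is given. The most alike in RC was ENSACLG00000016167, with r = 0.98, and among the 238 identifiers that carry a name in the study's tables the nearest were grhl3, capgb and ilvbl, with r = 0.95, 0.93 and 0.92 (restriction to named genes was chosen after the values were seen). The names cover genes that the study listed for neural crest, pigment or craniofacial annotation, or near regions with signs of selection. Which named gene is nearest depends on those lists. grhl3 encodes a grainyhead-like transcription factor of the surface epithelium, capgb an actin-capping protein of the gelsolin family. Without the 3 RC embryos low on the component, r of tspan37 with grhl3 over the other 23 was 0.71, with capgb 0.66 and with ilvbl 0.60. Over the 24 AC embryos r was -0.04 with capgb and 0.61 with ilvbl.

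grhl3 itself held 1948, 202 and 923 normalized counts in the 3 RC embryos at 10ss and 1147, 957 and 197 at 15ss. In the other 48 embryos it held between 792 and 3616, so the embryos poorest in tspan37 were also the poorest in grhl3. The gene was picked by its correlation with tspan37 over RC embryos that include these, so nothing is read from the match. At 4ss, where tspan37 was likewise low, grhl3 was high, at 1957 and 2465 in RC. In AC at 10ss grhl3 held 2382, 956 and 2579.6, lowest in the embryo low in tspan37, and r over the 24 AC embryos was 0.69, or 0.47 without that embryo.

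**Figure D4:**
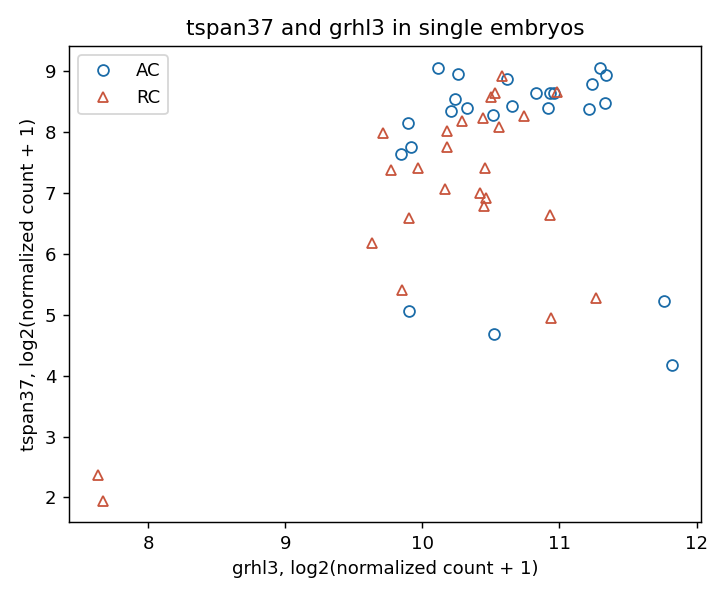
Log2(normalized count + 1) of tspan37 (vertical axis) against that of grhl3 (horizontal axis) in the 24 AC (circles) and 26 RC (triangles) embryos. The 2 triangles at the lower left are RC replicate 2 at 10ss and RC replicate 3 at 15ss, with 202 and 197 normalized counts of grhl3. The gene grhl3 was picked by its correlation with tspan37 over these 26 RC embryos.

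The spread among siblings also differed between the genes. The residual SD of tspan37 on the log2 scale was 1.27 in RC, exceeded by 2.36% of all genes tested, and 0.77 in AC, exceeded by 16.7%, against medians over genes of 0.28 and 0.32. These values rest on the groups with a low embryo: the SD among siblings was 2.43 in RC at 10ss and 2.58 at 15ss, at most 0.60 in any other RC group, and 1.94 in AC at 10ss. For kcnk18 it was 0.64 in RC and 0.58 in AC, exceeded by 23.5% and 28.0% of genes. The low counts of kcnk18 bring a large counting error: the highest value, 47.5, has a 95% counting interval of 34.9 to 63.1, and intervals cover counting error only.

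Ordered by group mean, kcnk18 ran from AC at 22ss (38.4), AC at 18ss (37.3) and RC at 37ss (35.8) down to AC at 4ss. Neighbours in this order overlapped at all but 2 places, between AC at 20ss (32.0) and RC at 30ss (22.5), and between AC at 15ss (13.1) and RC at 18ss (5.72). For tspan37 the order ran from AC at 15ss (488 ± 45.9) and AC at 30ss (466 ± 83.8) to RC at 4ss (33.9 ± 5.64) and AC at 4ss (26.0 ± 9.77), and all neighbours overlapped. The group means of the 2 genes had a correlation of 0.86 over the 17 groups, which share species, clutch and stage. Deviations of single embryos from their group means had correlations of -0.73 over the 24 AC embryos and 0.50 over the 26 RC embryos. The AC value takes in the 10ss group, where kcnk18 had 0, 6 and 1 reads and tspan37 had 315, 30 and 352. The RC value takes in the embryos with 3 and 4 reads of tspan37. Values without these embryos were not computed, so no difference in sign between species is read from them.

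By the same measure over the 17 group means, the gene most like kcnk18 was ENSACLG00000009605 (r = 0.97), and among named genes usp21 and egf were the nearest (both 0.94). For tspan37 it was ENSACLG00000016999 (r = 0.99), and among named genes atp6v0a1a (0.94), a subunit of the proton pump that acidifies vesicles, and ece2b (0.89), an endothelin-converting protease. These named genes too were picked after the values were seen. Names were limited to the study's lists, which favour neural crest genes, so nothing is read from which named genes are nearest. In AC embryos the named gene whose deviations were most like those of tspan37 was ednrab, an endothelin receptor of the neural crest lineage (r = 0.82, n = 24). It too was low in AC replicate 2 at 10ss by the 5-fold measure, and without that embryo r was 0.47.

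Of their families, the annotation of a Rhamphochromis assembly (fRhaChi2.1, RefSeq) names 13 genes of the potassium channel family and 25 tetraspanins. In the expression table names reach kcnk18 alone in the first and tspan37 and tspan36 in the second. tspan36 was named by the study for a species difference in these embryos, so its species values too are given without a test. Its level was not called to change across stages in AC (limma F-test, adjusted p = 0.148) and was in RC (adjusted p = 0.0440, 59.2% of genes), a call lost with the replicate block, with no filter on low values and without any 1 of the RC replicates. The single AC step of tspan36 from 15ss to 18ss was called, with a log2 fold change of -0.90 (SE 0.27, limma adjusted p = 0.0329, 2.33% of genes called lower). Its log2 difference, RC minus AC, was 1.08 (SE 0.30) at 4ss and between -0.57 and 0.60 (SE 0.27) at the 7 other stages.

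In that assembly, which is not the one the reads were mapped to, kcnk18 follows slc18a2, a vesicular monoamine transporter, and vax1, a homeobox gene of the eye and ventral forebrain, lies within the 5 genes after it. The 5 annotated genes before tspan37 are all variable or constant segments of antigen receptors, as are 3 of the 5 after it, and the nearest protein-coding neighbour is elavl1a, an RNA-binding protein gene. Sequences and coordinates of the build used for mapping are not given here.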

How the data were processed

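RNA of single whole embryos was sequenced as stranded, polyA-enriched paired-end libraries. Per the labels and the study's methods, reads were trimmed (Trim Galore), mapped to the A. calliptera genome (STAR) and counted per gene (HTSeq), and the authors deposited counts divided by DESeq2 size factors (unit: signal). The 17 deposited columns of group means were not used, nor were the lncRNA and transposon tables. Every deposited value was a whole number of reads times 1 factor per embryo (100% within 0.05 read), and the reads were recovered. The embryos labelled 27 somites in AC are the columns named 26ss.

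A gene was tested where 2 or more embryos held 10 or more normalized counts. limma (3.58.1, R 4.3.3, trend) was run on log2(normalized count + 1) in 1 model of the 17 groups for stages (50 embryos, 21212 genes) and of 16 groups for species (47 embryos without 37ss, 21123 genes), with Benjamini-Hochberg adjustment over all genes. The spread of each gene was estimated from all embryos of a model, so leaving out RC embryos also moved AC p-values. Alternatives were edgeR (4.0.16) and DESeq2 (1.42.0) on recovered reads, other pseudocounts, no filter, quantile normalization, a replicate block, each species or stage fitted alone and leaving out replicates. The fit was tested on simulated data. Members and lists were chosen with earlier results of these data known.

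Text names the members with every embryo and, for each, the genes most correlated over group means or deviations from them. Gene names came from the study's supplementary tables (238 identifiers). Those tables list genes with neural crest, pigment or craniofacial annotation, or near regions with signs of selection. Lists of potassium channels other than kcnk18, TRESK regulators, sensory neuron genes and other cell type markers found no names there except mitfa (0 to 131 normalized counts) and myf5, and were not analysed here. Same-numbered embryos were not paired: over 23 pairs of groups, deviations of embryos with the same number had correlations of -0.09 to 0.37, 4 of them over 0.1.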

Additional observations from a re-analysis of the deposited data

Results flagged for a closer look

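From 18ss to 20ss the kcnk18 values of the species moved in opposite directions: all 3 AC embryos at 20ss (29.1 to 33.8 normalized counts) lay below those at 18ss (34.7 to 38.6), a change in the mean of -5.31, while all 3 RC embryos at 20ss (10.8 to 16.7) lay above those at 18ss (2.23 to 9.10). Of all genes tested, 9.95% separated downwards in AC and 9.64% upwards in RC in this step. The log2 fold change was -0.22 (SE 0.50) in AC and 1.28 (SE 0.50) in RC, and neither step was called. In AC the reads before normalization overlapped, at 42, 44 and 34 at 18ss and 35, 39 and 36 at 20ss. The difference between the species was not tested.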

How the results depend on the processing

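The F-tests across stages and the 30ss against 4ss and 37ss against 30ss contrasts of kcnk18 and tspan37 kept their direction and their side of the threshold under all alternatives run, including the replicate block. Changes came in the count of tspan36. Changed across stages in RC went from 1 to 0 with no filter on low values, with the replicate block, without the 3 RC embryos low on the first component, and without any 1 RC replicate (range 0 to 1). Changed across stages in AC ranged from 0 to 1 over left-out replicates. Its species call also varied over left-out replicates, and nothing is read from it, since the study named the gene for that difference. Among single steps and species values, calls were lost under 10 alternatives spread over 4 results and gained under 9 over 5. These counts take in species values of tspan36, from which likewise nothing is read. Species values with no test moved by more than the SE of the model in 21 cases over 6 results. The AC step from 4ss to 10ss lost its call with quantile normalization for kcnk18 (0.63, adjusted p = 0.358) and tspan37 (1.74, adjusted p = 0.0553). Quantile normalization moved the median of all genes from 0.23 to -0.21 (log2) for AC and from 0.09 to -0.20 for RC between 4ss and 30ss. At 10ss the species value of kcnk18 was -0.02 and ran from -0.76 (DESeq2) to 0.77 (without AC replicate 2), at a depth of at most 6 reads. The cause was not tested.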
